A study of Mus musculus with 12 samples.

Results

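The box H/ACA small nucleolar RNAs described here were the features of a mouse blood expression array whose platform gene symbol began with Snora or Scarna. There were 41 of them (33 Snora and 8 Scarna) among 27381 features, of which 26794 carried a platform symbol. Blood RNA of C57B16/J mice, spelled C57Bl6/J in the paper, was measured on 12 Mouse Gene 2.0 ST arrays. The study asked whether genes that respond to learning in the brain respond in blood as well. The 4 groups, with 3 arrays each, were trained post, trained pre, untrained post and untrained pre. Trained mice were head fixed on an air-supported ball, kept short of water and rewarded with water for answering a visual cue, and untrained mice went through the same handling with water at random times. The labels gave 34 mice (16 male and 18 female), operated on at 8 to 12 weeks of age for head fixation and given 7 days of recovery. Each array held a pool of RNA from sets of 7 mice, after depletion of globin transcripts, so that p-values measure the spread between pools and no mouse can be followed through time. Which mice entered which pool is not given. 3 separate pools of 7 for each of the trained and untrained mice would need more than the 34 mice of the labels. By that count replicate pools may share mice. The study, however, describes 2 unique pools per condition, then a repeat of the experiment with 1 pool per condition, and reports more mice than the labels. Its trained and control mice were run in pairs of littermates of the same sex, a pairing that does not enter the fit. Pre blood was drawn at the surgery and post blood at the end of the experiment, by another route, so that the period of training, age, recovery from surgery, water restriction and the route of collection cannot be told apart in a difference between post and pre. Replicates 1 and 2 of each group were labelled batch 1 (8 arrays) and replicate 3 was labelled batch 2 (4 arrays).

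Box H/ACA RNAs are short nuclear RNAs that fold into hairpins and pair with a target RNA, placing a uridine where the enzyme dyskerin (Dkc1) turns it into pseudouridine. Each works in a particle with the proteins Dkc1, Nop10, Nhp2 and Gar1. The Snora RNAs act in the nucleolus, mostly on ribosomal RNA, while the Scarna RNAs reside in Cajal bodies and act on the RNAs of the spliceosome. In mammals nearly all of them are cut out of introns of a host gene, whose exons often encode a ribosomal protein or another part of the translation machinery, or a long non-coding RNA with no known protein. Snora73 (U17) is an exception to the guide role and is needed to cleave the ribosomal RNA precursor in human and yeast cells. The RNA component of telomerase, Terc, ends in a domain of the same fold.

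All 41 had an entry in the mouse RefSeq annotation, as 33 small nucleolar RNAs and 8 guide RNAs, with lengths of 42 to 275 bases (median 119) on 18 chromosomes. The symbol rule did not hold to the H/ACA class throughout. Scarna2, whose RefSeq synonyms include MBII-382, and Scarna9, which RefSeq also lists as Z32, carry box C/D names, and Scarna10 and Scarna6 are of a kind that combines both boxes in humans. Leaving out Scarna2 and Scarna9, an alternative chosen after seeing the data, changed none of the counts of called RNAs in the 6 comparisons. The counts could not change, because the fit stayed the same and neither RNA was called in it.

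Within the annotation 40 of the 41 lay inside a RefSeq gene (strand was not compared), which gave 35 distinct host genes. Of these 29 were protein coding, 10 of them ribosomal protein genes, and 6 were long non-coding RNAs. Several hosts of such RNAs start transcription in a stretch of pyrimidines, the 5′ terminal oligopyrimidine motif of translation genes. The start regions of 4 hosts are printed below because they hold 4 of the 5 called RNAs with the largest falls over the training period (the host of the fifth, Scarna6, matched no promoter entry) (RefSeq sequences, build GRCm38.p6, 100 bases before to 20 bases after the annotated start, 5′ to 3′ on the gene's strand). Capitals mark a run of at least 5 bases of C or T that begins within 5 bases of the start.
Kansl2, host of Snora34 (chr15:98534250-98534369, minus strand): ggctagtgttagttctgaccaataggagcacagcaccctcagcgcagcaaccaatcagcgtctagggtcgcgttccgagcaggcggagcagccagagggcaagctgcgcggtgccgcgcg
Snhg12, host of Snora16a (chr4:132308578-132308697, plus strand): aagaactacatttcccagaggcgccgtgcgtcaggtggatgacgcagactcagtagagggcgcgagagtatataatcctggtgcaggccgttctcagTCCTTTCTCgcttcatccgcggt
Rplp2, host of Snora52 (chr7:141447551-141447670, plus strand): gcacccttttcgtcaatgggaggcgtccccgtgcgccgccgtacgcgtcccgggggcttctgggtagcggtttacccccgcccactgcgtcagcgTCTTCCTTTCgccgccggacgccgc
Rps2, host of Snora64 (chr17:24719963-24720082, plus strand): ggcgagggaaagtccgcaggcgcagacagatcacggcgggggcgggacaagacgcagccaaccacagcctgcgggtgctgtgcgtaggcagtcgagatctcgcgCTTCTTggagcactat
Of 35 hosts 31 matched a promoter entry, and 9 of the 31 (29.0%) held such a run, against 22.03% of all 32851 promoters. The run read on the opposite strand (A or G) was in 16.1% of host promoters and 24.4% of all promoters. Kansl2 had no run in this window.

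The arrays measured the RNAs at levels that ran from near the floor to well above the middle of the array. Values are log2 intensities from the robust multi-array average (RMA), in which 1 unit is a doubling, and levels of different RNAs are not compared because each probe set has its own response. The mean over 12 arrays was at or above the median feature mean (1.47) for 29 RNAs and below it for 12, with a range of 0.39 (Snora70) to 5.44 (Snora21) and a median of 2.52, against 2.41 for the 71 features named Snord (box C/D). The 8 RNAs with the highest means were Snora21, Scarna3b, Snora23, Snora52, Snora16a, Snora41, Scarna13 and Snora3. The 12 RNAs below the median were Snora70, Snora20, Snora36b, Scarna10, Scarna3a, Snora2b, Snora61, Snora31, Snora33, Snora73a, Scarna8 and Snora75, and none of these was called in any comparison.

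**Figure D1:**
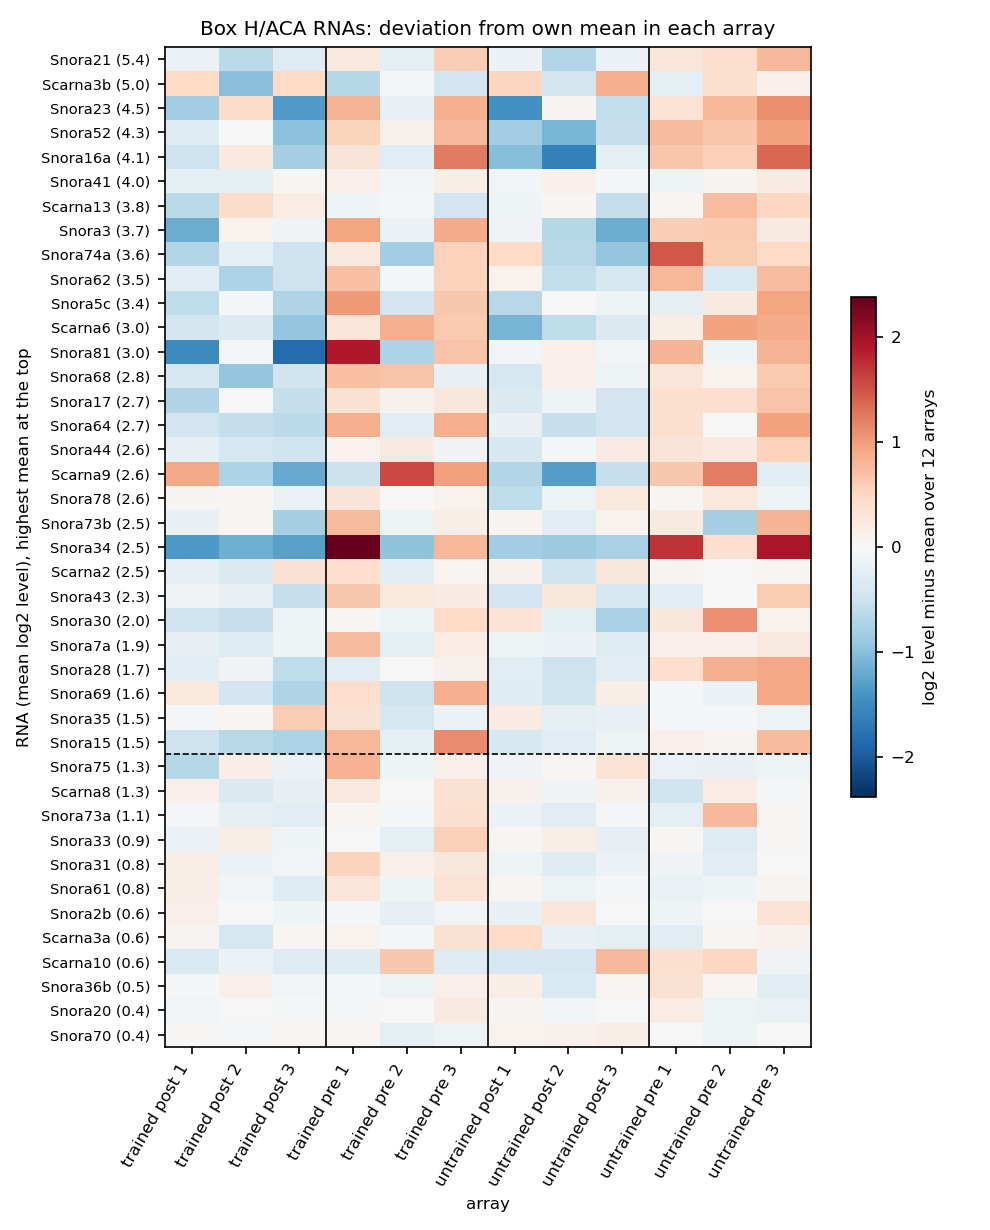
Log2 level of each of the 41 RNAs (rows, highest mean at the top, mean in brackets) in each of the 12 arrays (columns, by group), minus the mean of that RNA over all arrays. On this deposited scale most rows above the dashed line, which marks the median feature mean of 1.47, are blue in the post arrays and red in the pre arrays. The exception is trained pre 2, where 12 of 41 lay above their own mean. Centring on the level of box C/D features turns the median change to 0.34. That centring moves every feature up, post minus pre, by 0.63 in trained and 0.91 in untrained mice.

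Over the training period the box H/ACA RNAs fell on the deposited scale, over trained and untrained mice combined. Their median difference was 0.34 where each array was centred on the median level of its box C/D features. It was 0.11 where arrays were centred on the median deviation of these features from their own means. Post minus pre, the first centring moved every feature up by 0.63 in trained and 0.91 in untrained mice. The second moved every feature up by 0.48 and 0.599. Both thus left the gap between these RNAs and all features as it was. The change was the mean of the post minus pre differences of the trained and the untrained mice, from a limma fit of 4 group means and a batch term to all features, with Benjamini-Hochberg adjustment over all 27381. Called means an adjusted p below 0.05. Of the 41 RNAs 10 were called lower and 0 higher, against 1.92% of all features called lower and 1.30% called higher. The difference was negative for 37 of 41, against 46.4% of all features, and its median over the RNAs was -0.43, against 0.01 over all features. The box C/D features fell themselves, as given below. The median was -0.38 in batch 1 and -0.53 in batch 2. The 4 positive differences were those of Scarna3b (0.29), Snora70 (0.14), Snora35 (0.14) and Snora2b (0.04), none of them called.

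Snora34, a guide for the large-subunit ribosomal RNA in humans, changed most. It measured 1.16, 1.36 and 1.22 in the trained post arrays, against 4.90, 1.56 and 3.31 in the trained pre arrays, and 1.69, 1.66 and 1.74 in the untrained post arrays, against 4.24, 2.93 and 4.47 in the untrained pre arrays. The post arrays lay close together and the pre arrays were spread wide, with trained pre 2 low among them and below all 3 untrained post arrays. The difference over both groups of mice was -2.10 (SE 0.44, adjusted p = 0.0226), a 4.28-fold lower level. The call was kept in 7 of the 12 fits that each left out 1 array.

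Snora52, a guide for the large-subunit ribosomal RNA from an intron of the ribosomal protein gene Rplp2, had the smallest adjusted p. Its levels were 4.03, 4.34 and 3.37 in trained post arrays, against 4.88, 4.45 and 5.11 in trained pre arrays, and 3.52, 3.25 and 3.79 in untrained post arrays, against 5.09, 5.01 and 5.33 in untrained pre arrays. All 6 post arrays were below all 6 pre arrays. The difference was -1.26 (SE 0.17, adjusted p = 0.00395), or 2.40-fold lower.

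Scarna6, a Cajal body RNA from an intron of the autophagy gene Atg16l1, followed the same order. It measured 2.61, 2.71 and 2.13 in trained post arrays, against 3.32, 3.92 and 3.66 in trained pre arrays, and 1.92, 2.43 and 2.69 in untrained post arrays, against 3.18, 3.99 and 3.93 in untrained pre arrays. Again no post array reached the lowest pre array. The difference was -1.25 (SE 0.18, adjusted p = 0.00482), 2.38-fold lower.

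Snora16a lies in the non-coding gene Snhg12, and guides the large-subunit ribosomal RNA in humans. Its levels were 3.57, 4.30 and 3.28 in trained post arrays, against 4.36, 3.81 and 5.30 in trained pre arrays, and 3.04, 2.45 and 3.84 in untrained post arrays, against 4.72, 4.63 and 5.43 in untrained pre arrays. The untrained groups were apart, while trained post 2 was above trained pre 2. The difference was -1.29 (SE 0.25, adjusted p = 0.0154), and its 95% interval reached from -1.84 to -0.75. The call was lost in 1 of 12 fits that left out an array.

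Snora64, from the ribosomal protein gene Rps2, measured 2.26, 2.15 and 2.10 in trained post arrays, against 3.59, 2.47 and 3.59 in trained pre arrays, and 2.55, 2.17 and 2.26 in untrained post arrays, against 3.10, 2.72 and 3.68 in untrained pre arrays. Within each group of mice every post array was below every pre array, and trained pre 2 was below untrained post 1. The difference was -0.94 (SE 0.19, adjusted p = 0.0210).

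The other 5 called RNAs fell by less on the log2 scale. Snora15, a guide for the small-subunit ribosomal RNA in humans from the chaperonin gene Cct6a, had a difference of -0.89 (adjusted p = 0.0176). Snora68, a guide for the large-subunit ribosomal RNA in humans, had -0.74 (adjusted p = 0.0415), and its call was the least stable, kept in 2 of 12 fits that left out an array. Snora17, from the non-coding gene Snhg7, had -0.73 (adjusted p = 0.0121), and all 6 of its post arrays (2.02 to 2.75) were below all 6 pre arrays (2.84 to 3.43). Snora21, from the ribosomal protein gene Rpl23, had -0.69 (adjusted p = 0.0163). Snora28, from the translation initiation factor gene Eif5, had -0.67 (adjusted p = 0.0140), most of it in the untrained mice, as given below. Over the 41 RNAs, Snora52, Scarna6 and Snora17 were the 3 with every post array below every pre array, against 1.05% of all features, and 0 had every post array above (1.25%).

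The called RNAs were spread over the genome. They lay on 10 chromosomes, were 98 to 248 bases long, and 4 of the 10 sat in a ribosomal protein gene, as did 11 of all 41. With an unadjusted p below 0.05, 22 RNAs were lower and 0 higher, against 8.14% and 7.33% of all features. Those next in line were Snora3 (-1.04, adjusted p = 0.0563), Snora23 (-1.24, adjusted p = 0.0674) and Snora44 (-0.43, adjusted p = 0.0674). The number of calls was 5 without untrained pre 3, without trained pre 3 or without trained post 3. It was 15 without trained pre 2, where these RNAs were low among the pre arrays. All 10 called RNAs kept a negative difference in each of the 12 fits that left out an array.

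**Figure D2:**
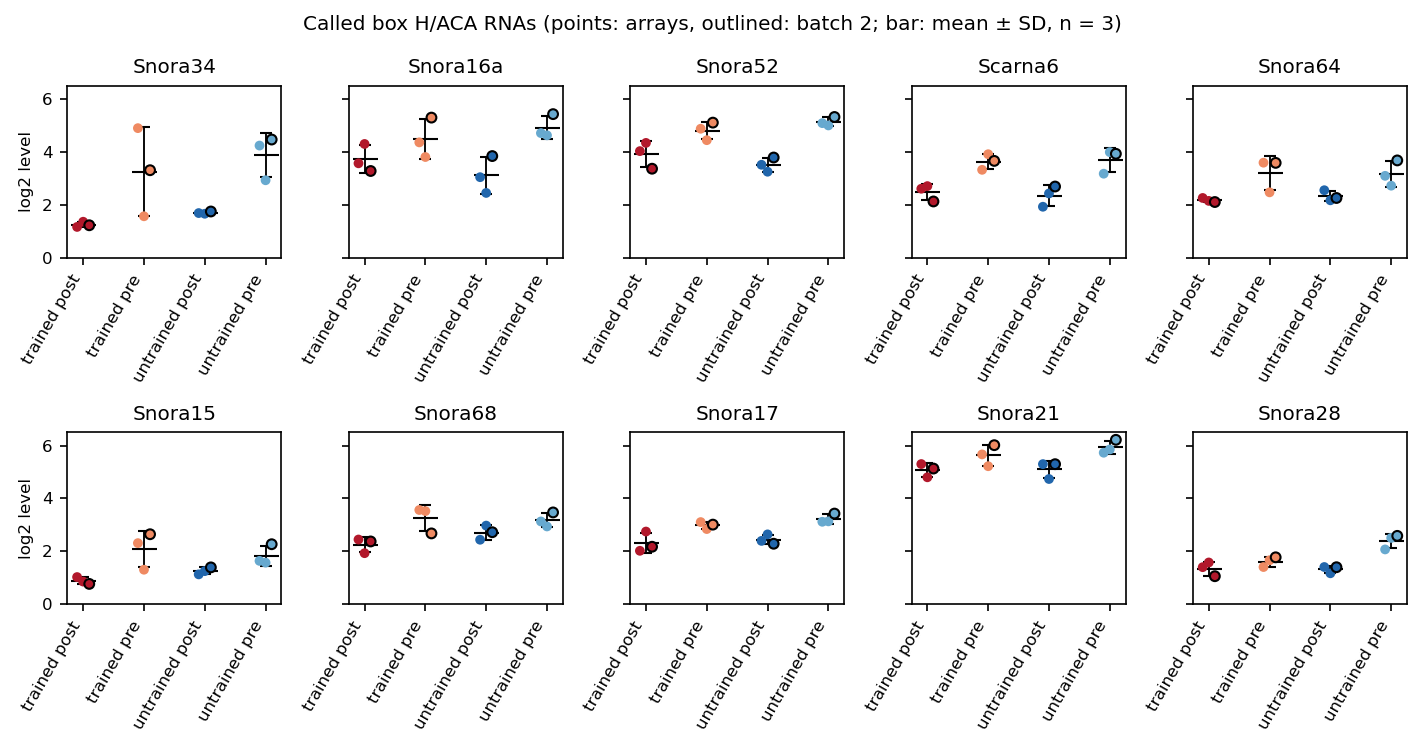
Log2 level of the 10 called RNAs in each array (points, with batch 2 outlined in black) and mean ± SD of each group (n = 3), ordered by their difference over the period, with the groups trained post, trained pre, untrained post and untrained pre from left to right. Snora52, Scarna6 and Snora17 show all post arrays below all pre arrays, and Snora34 shows post arrays at 1.16 to 1.74 beside pre arrays at 1.56 to 4.90.

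In untrained mice alone 4 RNAs were called lower after the period and 0 higher, against 0.511% and 0.164% of all features. The median difference was -0.43 (all features 0.02), with -0.33 in batch 1 and -0.72 in batch 2. It was 0.49 or 0.17 where arrays were centred on the level or on the deviation of box C/D features. These centrings moved every feature up by 0.91 and 0.599 in untrained mice. Of the 41, 32 were negative and 15 had every post array below every pre array (8.43% of all features), while 2 had every post array above (10.3% of all features). At an unadjusted p below 0.05, 17 were lower and 0 higher (6.77% and 5.85% of all features). The called RNAs were Snora16a (-1.81, SE 0.35, adjusted p = 0.0426), Snora52 (-1.62, SE 0.24, adjusted p = 0.0224), Scarna6 (-1.35, SE 0.26, adjusted p = 0.0417) and Snora28 (-1.06, SE 0.18, adjusted p = 0.0279). Snora28, which guides the small-subunit ribosomal RNA in humans, measured 1.40, 1.17 and 1.39 in untrained post arrays, against 2.07, 2.51 and 2.58 in untrained pre arrays. In trained mice it measured 1.40, 1.58 and 1.05 in post arrays, against 1.40, 1.66 and 1.77 in pre arrays, so the untrained pre arrays stood above the other 9. Snora34 had -2.18 in untrained mice, with an SE of 0.62, and was not called (adjusted p = 0.139). The number of calls was 0 without untrained pre 2, untrained pre 3, untrained post 1 or untrained post 2, it was 1 without untrained post 3, and it was 2 without trained pre 3.

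In trained mice alone 0 RNAs were called in either direction by limma, against 0.139% of all features called lower and 0.142% called higher. At an unadjusted p below 0.05, 18 RNAs were lower and 0 higher (5.41% and 4.96% of all features). The median difference was -0.46 (all features 0.00448), with -0.38 in batch 1 and -0.66 in batch 2. It was 0.18 or 0.026 where arrays were centred on the level or on the deviation of box C/D features. These centrings moved every feature up by 0.63 and 0.48 in trained mice. Of the 41, 35 were negative, and 11 had every post array below every pre array (7.78% of all features) while 0 had every one above (8.51%). The smallest p-values were those of Snora15, Scarna6 and Snora68. Snora15 measured 1.02, 0.85 and 0.76 in trained post arrays, against 2.31, 1.30 and 2.65 in trained pre arrays, a difference of -1.21 (SE 0.25, adjusted p = 0.0715). Its untrained values were 1.12, 1.25 and 1.39 in post arrays, against 1.64, 1.57 and 2.27 in pre arrays, and in both groups of mice the post and pre arrays were apart. Snora68 measured 2.44, 1.93 and 2.37 in trained post arrays, against 3.56, 3.52 and 2.68 in trained pre arrays, with a difference of -1.01 (adjusted p = 0.122). Scarna6 had -1.15 (adjusted p = 0.0990).

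The array trained pre 2 weighed on these counts. The median deviation of the 41 RNAs from their own means was -0.11 in that array, against 0.30 in trained pre 1 and 0.34 in trained pre 3, and 0.14, 0.13 and 0.32 in the untrained pre arrays. In the post arrays it was -0.20, -0.14 and -0.30 for trained mice, and -0.12, -0.22 and -0.14 for untrained mice. Trained pre 2 thus lay below the other pre arrays and just above the highest post array on this measure. It was singled out by the low level of these same RNAs, so a larger fall without it follows from that choice. Without it 4 RNAs were called lower in trained mice and the median difference was -0.66. The share of all features called in that fit is not given here, so these calls have nothing to be read against. The 4 were Snora34 (-2.87, adjusted p = 0.0265), Snora81 (-2.498, adjusted p = 0.0392), Snora15 (-1.56, adjusted p = 0.0104) and Snora64 (-1.40, adjusted p = 0.0265). Without trained post 3, by contrast, the median was -0.28.

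**Figure D3:**
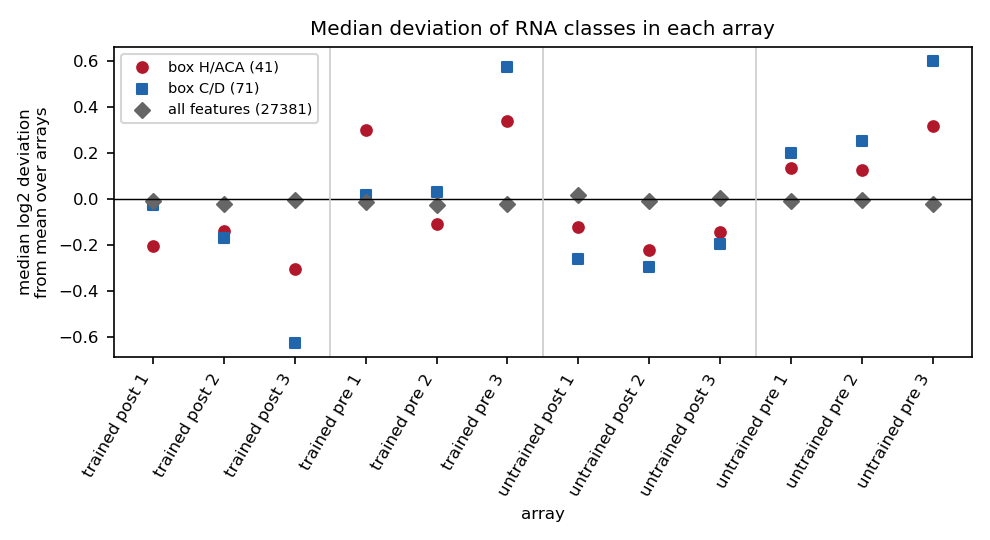
Median log2 deviation from the mean over the 12 arrays, in each array, for the 41 box H/ACA RNAs, the 71 box C/D features and all 27381 features. The medians of all features stay near 0, while those of the box H/ACA RNAs lie below 0 in all 6 post arrays and in trained pre 2, and above 0 in the other 5 pre arrays. The scale is not centred on box C/D features. Centring on their level turns the median change of the box H/ACA RNAs to 0.34. That centring moves every feature up, post minus pre, by 0.63 in trained and 0.91 in untrained mice.

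Trained and untrained mice were then compared in their change. Of the 41 RNAs 29 had a negative difference in both on the deposited scale, against 26.8% of all features, and 7 (Scarna6, Snora15, Snora17, Snora34, Snora44, Snora52 and Snora64) were lower without overlap in both, against 1.73% of all features. The difference between the changes (trained change minus untrained change) was called for 0 RNAs in either direction and for 1 feature of the array, called lower (0.00365%). The median was -0.01 (all features -0.00392), or -0.29 where arrays were centred on the level of box C/D features. That centring moved every feature alike here, as it raised the change by 0.63 in trained and 0.91 in untrained mice. At an unadjusted p below 0.05, 2 RNAs were positive and 0 negative, against 2.80% and 2.87% of all features. These 2 were Snora28 (0.80, SE 0.25, adjusted p = 0.832) and Scarna13 (0.83, SE 0.38, adjusted p = 0.881). Scarna13, the longest of the 41, measured 3.18, 4.24 and 3.995 in trained post arrays, against 3.71, 3.78 and 3.36 in trained pre arrays. In untrained mice it measured 3.70, 3.85 and 3.24 in post arrays, against 3.86, 4.54 and 4.30 in pre arrays, so that the groups overlapped in trained mice and not in untrained mice. The interval of the difference between the changes was 0.25 to 1.34 for Snora28 and 0.01 to 1.65 for Scarna13. Snora52 (0.72), Snora75 (-0.74), Scarna8 (-0.48) and Snora15 (-0.64) had intervals that included 0.

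**Figure D4:**
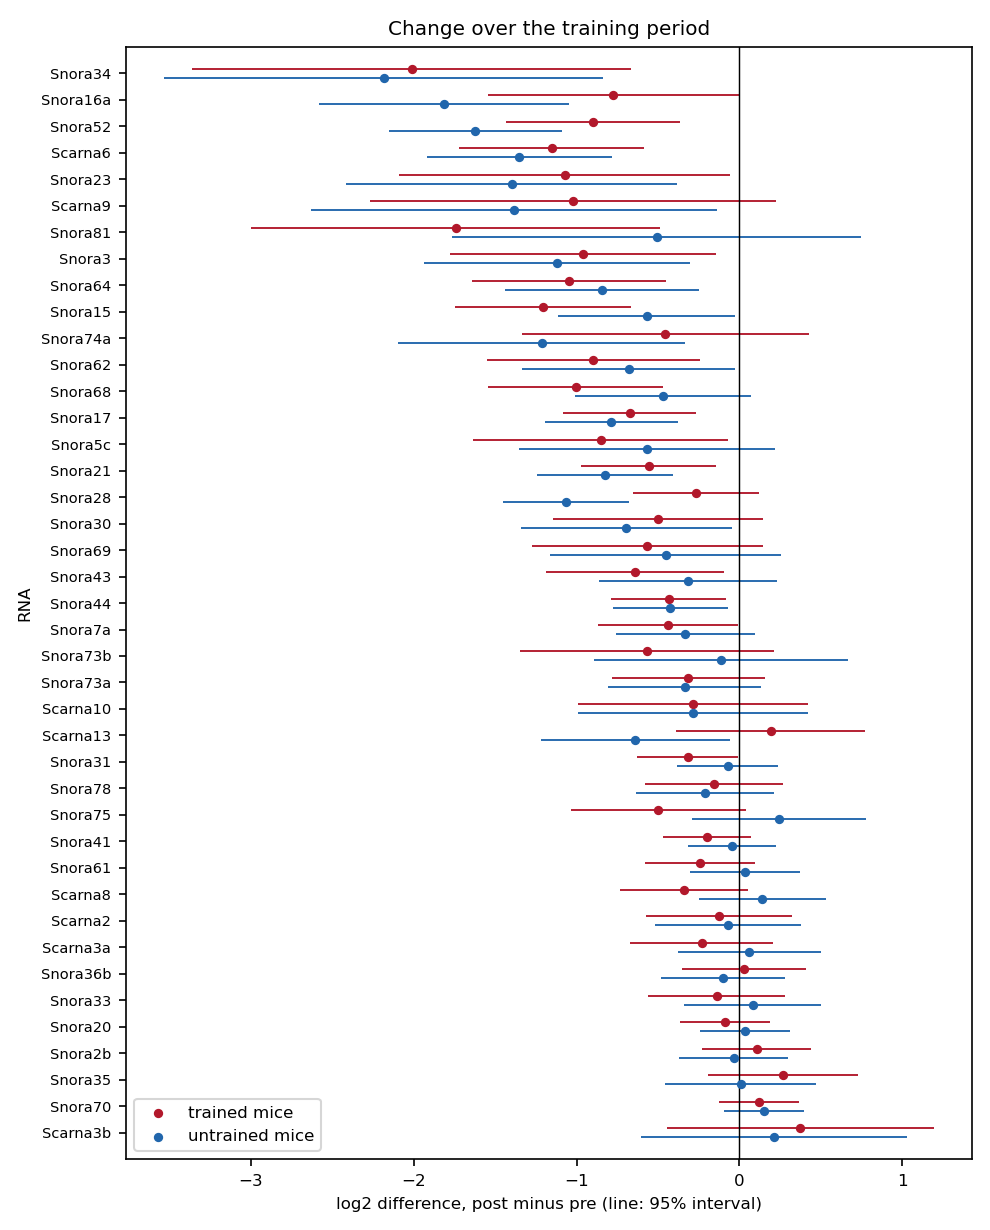
Post minus pre difference (log2) of each of the 41 RNAs in trained mice (red) and untrained mice (blue), with 95% intervals from the limma fit, ordered by the difference over both. On the deposited scale points of both colours lie left of 0 for 29 RNAs, with Snora34 farthest to the left in both groups of mice. With arrays centred on the level of box C/D features the median is 0.49 in untrained and 0.18 in trained mice. That centring moves every feature up, by 0.91 in untrained and 0.63 in trained mice.

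After the period, trained mice were set against untrained mice, the comparison the study was designed for. By limma 0 RNAs were called in either direction, against 0.00% of all features. At an unadjusted p below 0.05 there were 0 higher and 0 lower, against 3.03% and 3.38% of all features. The median difference was -0.07 (all features -0.01), with 12 positive and 29 negative, and the range was -1.12 to 0.61. The smallest adjusted p was 0.802, that of Snora81, which lies in the translation initiation factor gene Eif4a2. Snora81 measured 1.45, 2.94 and 1.13 in trained post arrays, against 2.90, 3.09 and 2.89 in untrained post arrays. Trained post 2 lay among the untrained arrays and the other 2 trained arrays lay well below them. The difference was -1.12 with a 95% interval of -2.38 to 0.13 that included 0.

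The RNAs that followed were small in difference or uneven between batches. Snora68 had -0.46 (95% interval -1.002 to 0.077) and Snora44, another RNA of Snhg12, had -0.30 (-0.65 to 0.06). Snora16a was 0.61 higher in trained post arrays, with 1.19 in batch 1 and -0.57 in batch 2, and Snora52 was 0.40 higher, with 0.80 in batch 1 and -0.42 in batch 2. In both the sign thus differed between the batches. Snora35 had 0.27 (-0.19 to 0.73). Snora15, Snora34 and Snora70 were the 3 RNAs with every trained post array below every untrained post array, against 7.29% of all features, and 0 had every one above, against 4.84%. For Snora34 the values were 1.16, 1.36 and 1.22 in trained post arrays, against 1.69, 1.66 and 1.74 in untrained post arrays. A negative difference in both batches was seen for 14 RNAs and a positive one for 2.

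Before the period 0 RNAs were called between trained and untrained mice, against 0.00% of all features, with every adjusted p at 0.999. The median difference was 0.01 (all features -0.00789), or 0.28 where arrays were centred on the level of box C/D features. That centring moved every feature by the same amount in this comparison. At an unadjusted p below 0.05, 2 RNAs were lower in trained pre arrays and 1 was higher, against 2.01% and 2.19% of all features. These were Snora28 (-0.78), Scarna13 (-0.62) and Snora31 (0.42). Snora31, which lies in the gene of the translationally controlled tumour protein Tpt1, measured 1.37, 0.95 and 1.10 in trained pre arrays, against 0.75, 0.58 and 0.84 in untrained pre arrays. Those groups were apart, at levels below the median feature. In all 4 RNAs had every trained pre array below every untrained pre array (5.95% of all features) and 2 had every one above (4.88%). Snora74a (U19) had -0.87, with -1.34 in batch 1 and 0.07 in batch 2. Snora75, from the nucleolin gene Ncl, had 0.43, and Scarna8 had 0.30. Comparisons of post with pre arrays use these same pre arrays, so the Snora28 and Scarna13 differences here also enter their differences between the changes.

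Some well measured RNAs showed small differences. Snora41, from the elongation factor gene Eef1b2, measured 3.80, 3.80 and 4.07 in trained post arrays, against 4.15, 3.97 and 4.16 in trained pre arrays, and 3.97, 4.15 and 3.99 in untrained post arrays, against 3.92, 4.10 and 4.22 in untrained pre arrays. Its difference over both was -0.12, with a 95% interval of -0.31 to 0.07. Scarna3b, at a mean of 5.04, had 5.51, 4.04 and 5.51 in trained post arrays, against 4.35, 5.01 and 4.58 in trained pre arrays, and 5.54, 4.60 and 5.91 in untrained post arrays, against 4.82, 5.43 and 5.16 in untrained pre arrays. Replicate 2 was the lowest post array in both groups of mice, and the groups overlapped.

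Others varied widely among arrays without a call. Snora23, from the nuclear import gene Ipo7, had 3.62, 4.88 and 3.10 in trained post arrays, against 5.25, 4.27 and 5.30 in trained pre arrays, and 3.01, 4.52 and 3.86 in untrained post arrays, against 4.80, 5.24 and 5.55 in untrained pre arrays. Scarna9 ranged most widely among the Scarna RNAs, with 3.51, 1.87 and 1.40 in trained post arrays, against 2.09, 4.18 and 3.58 in trained pre arrays, and 1.92, 1.29 and 2.06 in untrained post arrays, against 3.24, 3.83 and 2.35 in untrained pre arrays. Its difference was -1.20 with an SE of 0.41 (adjusted p = 0.154). In Snora23 the trained groups overlapped and the untrained groups did not, and the same held for Scarna9. Snora3, from the ribosomal protein gene Rpl27a, had 2.55, 3.80 and 3.64 in trained post arrays, against 4.67, 3.58 and 4.62 in trained pre arrays, and 3.65, 3.05 and 2.56 in untrained post arrays, against 4.32, 4.36 and 3.94 in untrained pre arrays. Trained pre 2 again lay within the range of the post arrays. Snora62 (-0.79, host Rpsa), Snora5c (-0.71, host Tbrg4), Snora30 (-0.60, host Srcap), Snora69 (-0.51, host Rpl39) and Snora7a (-0.39, host Rpl32) had negative differences in both batches, with adjusted p of 0.0702 to 0.315.

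Among RNAs set apart by their role or site, Snora73a and Snora73b (both U17, from Snhg3) had differences of -0.33 and -0.34 over both groups of mice, with adjusted p of 0.337 and 0.597. These 2 are close copies, so their probe sets may share signal. Snora74a measured 2.92, 3.41 and 3.12 in trained post arrays, against 3.86, 2.80 and 4.16 in trained pre arrays, and 4.11, 2.97 and 2.70 in untrained post arrays, against 5.11, 4.22 and 4.09 in untrained pre arrays, a difference of -0.83 (adjusted p = 0.162) with overlapping groups. Snora35, which in mice and humans is found mainly in brain and lies in the serotonin receptor gene Htr2c, had 1.48, 1.57 and 2.13 in trained post arrays, against 1.88, 1.12 and 1.38 in trained pre arrays, and 1.71, 1.30 and 1.35 in untrained post arrays, against 1.48, 1.47 and 1.40 in untrained pre arrays. Those arrays overlapped, and Htr2c itself was at a mean of 0.67. Scarna2, the Cajal body RNA with no host here, had -0.10 (adjusted p = 0.827).

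Host genes of the RNAs leaned lower over both groups of mice, without a call. Of the 35 hosts 31 were measured and 0 were called, against 1.92% of all features called lower and 1.30% called higher. A negative difference was seen for 24 of 31, against 46.4% of all features. At an unadjusted p below 0.05, 6 were lower and 0 higher, against 8.14% and 7.33% of all features. Their median difference was -0.07, against 0.01 over all features, with a range of -0.41 (Tcp1) to 0.50 (Tpt1). The 9 measured hosts of called RNAs had differences from -0.31 (Snhg7) to 0.23 (Rpl23), with a smallest adjusted p of 0.197. Kansl2, which encodes a subunit of a histone acetyltransferase complex, had -0.13 (SE 0.27), beside -2.10 for Snora34. Its arrays overlapped between groups, at 2.49, 3.74 and 2.12 in trained post arrays, against 2.88, 2.79 and 2.82 in trained pre arrays, and 1.92, 2.67 and 2.75 in untrained post arrays, against 2.32, 2.34 and 3.31 in untrained pre arrays. Atg16l1 had -0.06 beside -1.25 for Scarna6, Rps2 had -0.01 beside -0.94 for Snora64, and Snhg12 had -0.30 (SE 0.13) beside -1.29 for Snora16a. Rplp2, host of Snora52, was not among the features measured.

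RNAs that share a host also differed from each other. Kansl2 holds Snora34 and Snora2b, and Snora2b had 0.04 at a mean of 0.64, well below the median feature. Snhg12 holds Snora16a (-1.29), Snora44 (-0.43) and Snora61 (-0.11, at a mean of 0.79). The span of Rps2 holds Snora64 (-0.94) and Snora78 (-0.18), both measured above the median feature, at means of 2.72 and 2.60. Snora78 also lies within the span of the non-coding gene Snhg9. Strand was not compared, so whether Snora64 and Snora78 share a host is not settled. Snhg7 holds Snora17 (-0.73) and Snora43 (-0.48). In untrained mice the host Tcp1, a chaperonin subunit gene, was called lower (-0.72, adjusted p = 0.0492), while the RNA inside it, Snora20, had 0.04 at a mean of 0.44.

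**Figure D5:**
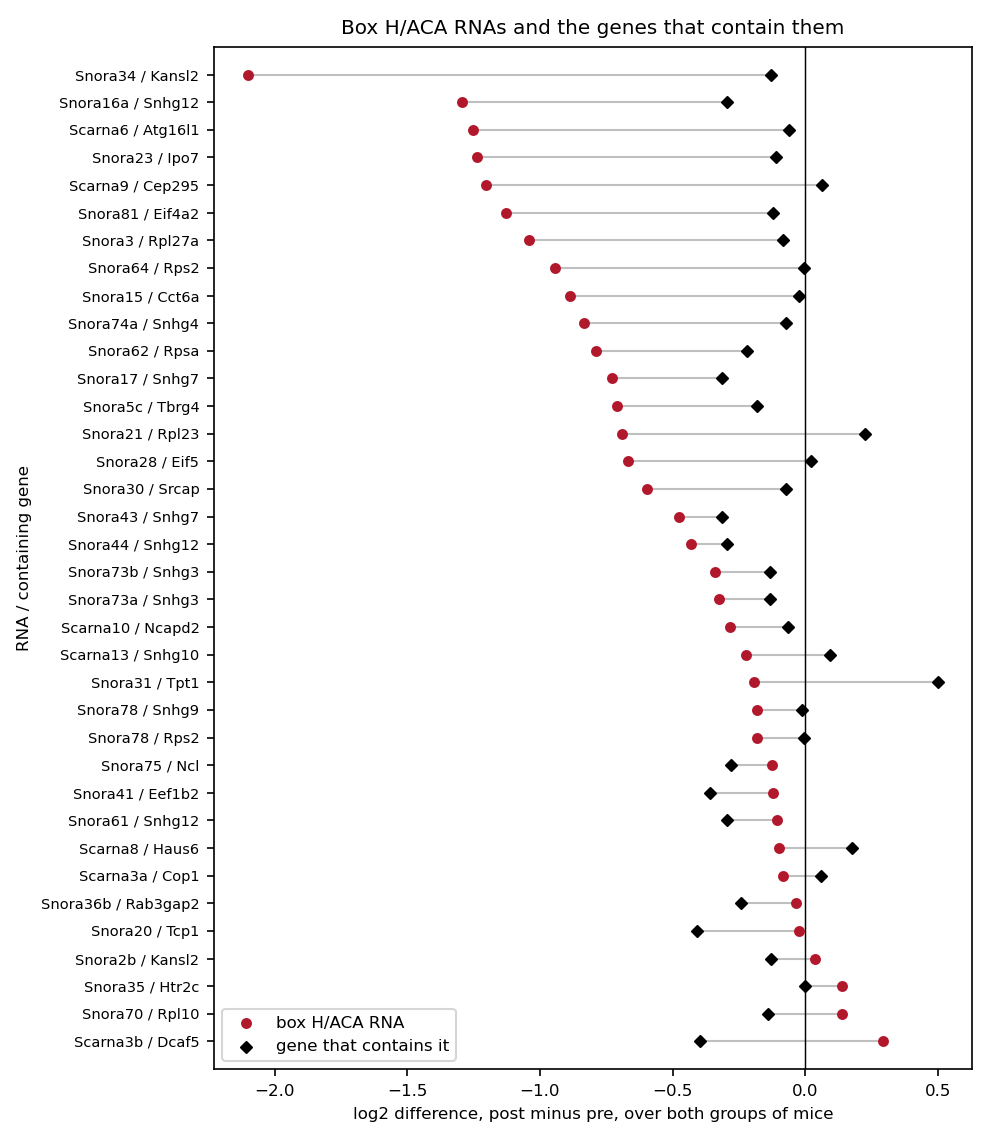
Post minus pre difference (log2) over both groups of mice for each RNA (red circles) and for the measured gene that contains it (black diamonds), 1 row per pair, joined by a grey line, with 1 pair left out. The hosts span -0.41 to 0.50 with a median of -0.07, while the RNAs reach down to -2.10. Some hosts, among them Snhg12, Snhg7 and Tpt1, have means below the median feature mean of 1.47.

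Genes of the pathway and of related steps were taken from a list of 37, of which 35 were measured. Over both groups of mice 1 was called higher and 1 lower, against 1.30% and 1.92% of all features. In the other 5 comparisons 0 were called, against at most 0.511% of all features in either direction. The core proteins had differences of 0.03 (Dkc1), -0.21 (Nop10), -0.03 (Gar1) and close to 0 (Nhp2), and 0 of 4 passed. The assembly factors (0 of 6), the Cajal body and nucleolar partners (0 of 4) and the stand-alone pseudouridine synthases, which need no guide RNA (0 of 12), gave no call. The gene called higher was Tent4b, which in humans encodes a polymerase that adds A tails to the ends of nuclear RNAs, snoRNA precursors among them, at 0.79 (SE 0.14, adjusted p = 0.0103). The gene called lower was Nop56, a core protein of box C/D particles, at -0.69 (SE 0.16, adjusted p = 0.0379). Terc, the telomerase RNA with an H/ACA domain, had -0.31 (SE 0.17, adjusted p = 0.436).

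The box C/D features, the other large class of guide RNAs, moved in the same direction. Of 71, 24 (33.8%) were called lower and 0 higher over both groups of mice, against 1.92% and 1.30% of all features. The median was -0.54, with medians of -0.42 in batch 1 and -0.999 in batch 2. The remaining 786 features annotated as small nucleolar RNAs, without a Snora, Scarna or Snord symbol and with a median level of 0.75, had a median difference of -0.01. Of these 26 (3.31%) were called lower and 1 higher. The 531 microRNA features had a median of 0.03, with 15 (2.82%) called lower and 3 higher. Both shares called lower were nearer to that of all features than the share of box C/D features was. The difference between the H/ACA and C/D classes was not tested. Centring on the level of box C/D features moved every feature up by 0.63 in trained and 0.91 in untrained mice (post minus pre), more than the box C/D medians fell, and on that scale 17 H/ACA RNAs were called higher and 5 lower over both groups of mice, among 25457 features called. Centring on their deviation, added after seeing the data, moved every feature up by 0.48 in trained and 0.599 in untrained mice, with 12 RNAs called higher and 8 lower among 21882 features called. Under both centrings Snora34, Snora52, Scarna6, Snora16a, Snora15 and Snora64 kept a negative difference.

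Blood holds several cell types, and in pooled blood fewer cells of a type cannot be told apart from less RNA per cell. Over both groups of mice all 5 B cell markers were called lower, with a median difference of -1.71. Their mean level was 4.40 to 6.20 in trained post arrays, against 6.56 to 6.84 in trained pre arrays. In untrained mice it was 4.31 to 5.24 in post arrays, against 6.70 to 6.90 in pre arrays. All 5 neutrophil markers had a negative difference (median -0.93), and 3 of them were called lower. Their level was 5.002 to 6.16 in trained post arrays, against 6.34 to 6.84 in trained pre arrays. In untrained mice it was 5.22 to 5.89 in post arrays, against 6.38 to 6.88 in pre arrays. All 5 T cell markers were negative as well (median -0.62), with 1 called lower. All 4 monocyte and all 4 NK cell markers were negative, with 0 called. Of 5 platelet markers 2 were called higher and 1 had a negative difference (median 0.32). The red cell list had 0 of 8 called, at 7.57 to 7.996 over all arrays. Of 3 airway markers 2 were called higher (Bpifa1 and Scgb1a1, at 4.36 and 4.22) and 1 had a negative difference. Their list stood at 2.59 to 5.67 in trained post arrays, against 0.91 to 1.82 in trained pre arrays. In untrained mice it stood at 3.08 to 5.60 in post arrays, against 0.83 to 2.04 in pre arrays. No post array reached the pre arrays in B cell markers, and none of the pre arrays reached the post arrays in airway markers. The part of these lists in the fall of the box H/ACA RNAs was not tested.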

How the data were processed

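RNA of pooled blood was hybridised to 12 arrays. The authors processed the arrays with RMA (affy 1.62.0 in R 3.6.0), giving log2 intensities, on a custom Brainarray 24.0.0 probe set definition with 1 feature per gene. Array medians were 1.44 to 1.52. No counts lie behind the values, so precision is limited by the number of arrays. Groups and batches came from the labels. The values were fitted as deposited with limma 3.58.1 in R 4.3.3 (4 group means and batch, 7 residual degrees of freedom, empirical Bayes, two-sided). Benjamini-Hochberg adjustment ran across the 27381 features together, and calls needed an adjusted p below 0.05. Fits were tested on simulated data. The members and gene lists were chosen with earlier results of these data known. Given array by array are the called RNAs (up to 5 per direction by size) or the 3 of smallest p in each direction, the 8 of highest mean, those of widest range, and a few set by role. A host is a RefSeq gene (GRCm38.p6) whose span contains the RNA. Alternatives were the batch term left out or replaced by a replicate block, batch 1 alone, only the groups compared, a filter on low levels, quantile normalization, other centrings, a trended prior, array weights, each array left out, and, added after seeing the data, a second box C/D centring and the list without Scarna2 and Scarna9. Sequences of the RNAs themselves are not used here. 1 host gene is not reported here by name, although the counts over hosts include it.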

Additional observations from a re-analysis of the deposited data

How the results depend on the processing

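The alternatives covered the batch term, normalization, filtering and each array in turn. Centring on the level of box C/D features turned the median difference to 0.34 over both groups of mice, 0.49 in untrained and 0.18 in trained mice, and moved it to 0.28 for trained against untrained mice before the period and to -0.29 for the difference between the changes. Calls then numbered 22 over both, 19 in untrained mice (16 higher and 3 lower) and 3 in trained mice (1 higher and 2 lower), and over both groups Snora17 (0.041), Snora28 (0.10), Snora21 (0.080) and Snora68 (0.033) changed sign. Centring on their deviation from their own means, chosen after seeing the data, gave medians of 0.11 over both, 0.17 in untrained and 0.026 in trained mice, with 20 calls over both (12 higher and 8 lower), 11 in untrained mice (5 higher and 6 lower) and 2 in trained mice (both lower). Both centrings add a constant to every feature of an array, in the post arrays upward. In each comparison they therefore move all features alike, and the gap between these RNAs and all features stays as it was. Among features at or above the median level the median difference was -0.71 over both, -0.64 in untrained and -0.64 in trained mice, with 1 call (Snora15) in trained mice; the 12 low RNAs are left out there. With the 8 arrays of batch 1 alone 1 RNA was called over both and 1 in untrained mice (Snora52 in both cases), in a fit with fewer arrays. With 1 array left out, calls ranged from 5 to 15 over both, 0 to 5 in untrained mice and 0 to 4 in trained mice, and were 0 in the other comparisons. The medians ranged from -0.51 to -0.38 over both, -0.48 to -0.29 in untrained mice, -0.66 to -0.28 in trained mice, -0.10 to 0.01 between trained and untrained mice after the period, -0.16 to 0.11 before it, and -0.14 to 0.05 for the difference between the changes.

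Replicate numbers are shared by the groups, and whether they mark pairs is not known, since which mice entered which pool is not given. Of 18 same-numbered pairs of arrays 2 had a correlation of deviations above 0.1 (range -0.19 to 0.14). That check covered all features, with batch not removed, and cannot decide whether same-numbered pools hold the same mice. A fit with the replicate block in place of batch called 10 RNAs over both groups of mice, 5 in untrained and 0 in trained mice, and 0 in the other 3 comparisons, with medians of -0.43, -0.43 and -0.46 for the change over both, in untrained and in trained mice, and -0.07, 0.01 and -0.01 for the other 3. Snora68 lost its call there (adjusted p = 0.0508), as it did after quantile normalization and with array weights. Leaving out the batch term, quantile normalization, median centring, a trended prior and array weights kept 9 or 10 of the 10 calls over both groups of mice. The batch term itself was called for 0 of the 41 RNAs, and for only 43 of the 27381 features. At an unadjusted p below 0.05 it passed for 2 of the 41 RNAs, against 1.98% of all features. With 3 arrays a group, an effect in one group of mice and not in the other does not show that they differ.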
